A study of Mus musculus with 2 samples.

Results

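Endothelial identity genes were followed in cultured mouse cavernous endothelial cells (MCECs) under high glucose (HG). They are a list of 10 genes, Pecam1, Cdh5, Vwf, Kdr, Flt1, Tek, Tie1, Eng, Sox17 and Erg, taken from the expression table by gene symbol, a list drawn up when earlier results of these data were known. All 10 were found, among 23183 gene symbols, on 26 of the 33299 transcript rows.

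RNA sequencing gave 1 library from MCECs in HG with the vehicle HBS (HG+HBS) and 1 from MCECs in HG with pericyte-derived nanovesicles (HG+PC-NVs), particles pressed out of cultured mouse cavernous pericytes. Glucose was at 30 mM in both, and PC-NVs were added at 1 µg/mL to the second culture only. By the study's methods the RNA was taken 72 hours after the change of glucose and 24 hours after PC-NVs were added, whereas 5 days of glucose are given in the labels of the samples. The comparison asks which transcripts of MCECs in HG differ when PC-NVs are present. The cells were primary cultures grown out of penis tissue of 8-week-old male C57BL/6J mice, in M199 medium with 20% fetal bovine serum and 0.5 mg/mL heparin, to which the methods add 5 ng/mL VEGF, and they were used between passages 2 and 4. A step of 24 hours without serum came before the glucose conditions. How many animals or cultures went into each library is not given in the sources used here. Since there is 1 library per condition, no difference could be set against the spread between cultures, and no test was made.

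Endothelial cells line blood vessels and the sinusoids of the corpus cavernosum. They hold together through VE-cadherin (Cdh5) and PECAM-1 (Pecam1), read growth signals through receptors for VEGF, angiopoietins and the BMP9 family, store von Willebrand factor for haemostasis, and keep this programme running through ETS and SoxF transcription factors. Relaxation of cavernous smooth muscle during erection depends in part on nitric oxide made by this cell layer.

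Values "with HBS" and "with PC-NVs" are those of HG+HBS and HG+PC-NVs. The levels are normalized FPKM, fragments per kilobase of transcript, scaled to the size of the library, with the rows of a gene summed. A log2 ratio is the difference of log2(FPKM + 1), HG+PC-NVs minus HG+HBS. That scale understates changes of low genes, so plain ratios of levels are given as well. The HG+HBS library held about 13300000 fragments and the HG+PC-NVs library about 11600000, estimated from the steps between low values. From these, 95% exact intervals were computed (Poisson for a level, binomial for a ratio), which cover counting error only, and a gene at or under 3 fragments was taken as not detectable at this depth.

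Most endothelial identity genes lay low in both libraries. Eng and Cdh5 were the 2 of 10 at 1 FPKM or more in both, against 49.3% of all 23183 symbols, and 6 were under 1 FPKM in both. The whole list summed to 37.4 FPKM with HBS and 29.95 FPKM with PC-NVs, 0.00717% and 0.00516% of all FPKM of the library. Eng made up 77.5% of that sum with HBS and 71.3% with PC-NVs. Without Eng the sums were 8.41 FPKM and 8.59 FPKM, a ratio of 1.02. In a bulk library, fewer cells of a type and less RNA per cell cannot be told apart.

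**Figure D1:**
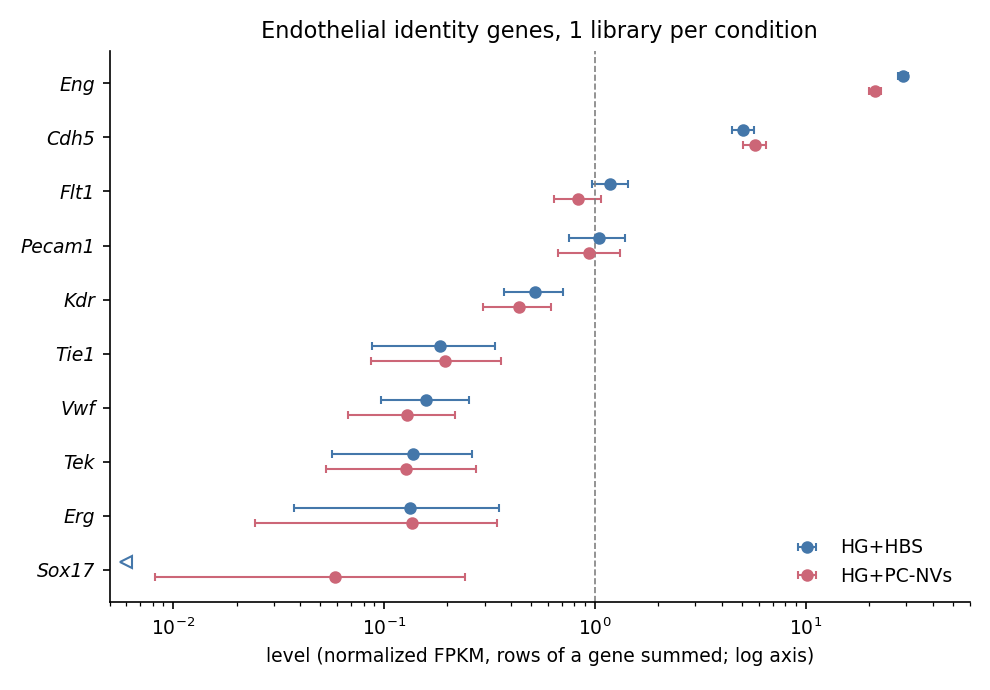
Level of each endothelial identity gene (horizontal axis, normalized FPKM on a log axis) in HG+HBS (blue) and HG+PC-NVs (red), with bars for the 95% exact Poisson interval of the fragment count; the dashed line marks 1 FPKM and the open triangle a value beyond the left edge. Eng at 29.0 and 21.4 FPKM and Cdh5 at 5.05 and 5.73 FPKM are to the right of the line in both libraries, and 6 genes are to its left in both.

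The gene starts of 3 receptors are shown, since Eng carried most of the summed level and since Flt1 and Kdr are the VEGF receptor pair of the list. These are the 250 bases before the start in RefSeq, on build GRCm38.p6, written 5′ to 3′ along the gene's strand. Capitals mark GGAA or its reverse complement TTCC, the core letters that ETS factors such as ERG bind. The windows are chr2:32646345-32646594 on the plus strand for Eng, chr5:147726012-147726261 on the minus strand for Flt1 and chr5:75978456-75978705 on the minus strand for Kdr.
Eng: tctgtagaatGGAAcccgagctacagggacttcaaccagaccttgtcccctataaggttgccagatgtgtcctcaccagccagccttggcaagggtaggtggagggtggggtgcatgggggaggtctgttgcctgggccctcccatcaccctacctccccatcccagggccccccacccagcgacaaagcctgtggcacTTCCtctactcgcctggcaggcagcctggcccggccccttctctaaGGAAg
Flt1: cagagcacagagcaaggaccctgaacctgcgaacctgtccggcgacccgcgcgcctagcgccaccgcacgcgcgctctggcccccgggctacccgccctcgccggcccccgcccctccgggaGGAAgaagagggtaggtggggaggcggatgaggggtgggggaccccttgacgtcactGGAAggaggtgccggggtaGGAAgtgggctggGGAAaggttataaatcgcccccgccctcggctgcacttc
Kdr: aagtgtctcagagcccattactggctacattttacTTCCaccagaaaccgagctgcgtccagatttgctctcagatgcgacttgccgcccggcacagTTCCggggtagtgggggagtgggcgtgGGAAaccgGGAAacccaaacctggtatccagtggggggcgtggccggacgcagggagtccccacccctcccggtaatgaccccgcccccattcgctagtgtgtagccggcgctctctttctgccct
The Eng window held 3 matches on both strands together, Flt1 held 4 and Kdr held 4. Of 32851 promoter windows of the same length 93.4% held at least 1 match, the median was 3, and 33.4% held 4 or more, so these letters did not set the 3 windows apart. The table had entries for 6 of the 10 genes, adding Tie1 with 7 matches, Tek with 2, and 3 windows of Erg with 0, 4 and 2. Pecam1, Cdh5, Vwf and Sox17 had no entry. A match is a run of letters and was not tested as a binding site.

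Among the junction genes, Cdh5 was far above Pecam1. Cdh5 (ENSMUSG00000031871, plus strand of chromosome 8, 104101625 to 104144511 in the GENCODE M21 annotation of GRCm38, the mm10 build, as for all positions that follow) encodes VE-cadherin, the adhesion molecule of endothelial adherens junctions. It had 1 row and stood at 5.05 FPKM (95% interval 4.47 to 5.70) with HBS and 5.73 FPKM (5.06 to 6.46) with PC-NVs, from about 269 and 266 fragments. The ratio was 1.14 (0.953 to 1.35), the log2 ratio 0.15, and the intervals of the libraries overlapped. Pecam1 (minus strand of chromosome 11, 106654217 to 106750628) encodes the CD31 protein, the usual stain for endothelium. Its 4 rows summed to 1.05 FPKM (0.756 to 1.39) with HBS and 0.938 FPKM (0.665 to 1.32) with PC-NVs, with 99.9% and 100% on a single row. The ratio of Pecam1 was 0.896 (0.574 to 1.45), so a rise or a fall of that size was not detectable at this depth.

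The VEGF receptors were low, and Flt1 was lower in HG+PC-NVs. Flt1 (minus strand of chromosome 5, 147561604 to 147726011) encodes VEGFR1, which binds VEGF tightly and in part acts as a sink for it. It stood at 1.19 FPKM (0.967 to 1.43) with HBS and 0.835 FPKM (0.643 to 1.07) with PC-NVs, from about 104 and 64.0 fragments. The ratio was 0.705 (0.508 to 0.972) and the log2 ratio -0.25. That interval left out 1, by a small margin and for counting error alone. Kdr (minus strand of chromosome 5, 75932827 to 75978458) encodes VEGFR2, the main signalling receptor for VEGF in endothelium. It stood at 0.518 FPKM (0.373 to 0.705) and 0.438 FPKM (0.294 to 0.622), with a ratio of 0.845 (0.505 to 1.38). In neither library did the interval of Kdr reach that of Flt1, the higher of the pair.

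Tie1 and Tek, the receptors of the angiopoietin system that steadies mature vessels, rested on few fragments. Tie1 (minus strand of chromosome 4, 118471191 to 118490061), an orphan receptor that pairs with TIE2, stood at 0.185 FPKM with HBS and 0.194 FPKM with PC-NVs, a ratio of 1.05 (0.371 to 2.82). Tek (plus strand of chromosome 4, 94739289 to 94874976) encodes TIE2, which binds the angiopoietins. Its level was 0.137 FPKM and 0.128 FPKM, from about 8.28 and 6.75 fragments, a ratio of 0.934 (0.309 to 3.16). The reads of Tek were placed on different transcript rows in the libraries. In HG+HBS 1 row took 51.5% and another 48.4%, whereas in HG+PC-NVs the remaining row took nearly the whole level. With so few fragments, a change of isoform was not detectable.

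Eng was the highest of the 10 genes and showed the largest difference in FPKM. Endoglin (Eng, ENSMUSG00000026814, plus strand of chromosome 2, 32646595 to 32682669) is a co-receptor for BMP9 and TGF-β family ligands that is abundant on proliferating endothelium and is also made by stromal and some myeloid cells. It stood at 29.0 FPKM (27.5 to 30.6) with HBS and 21.4 FPKM (20.0 to 22.9) with PC-NVs, from about 1315 and 846 fragments. The ratio was 0.737 (0.675 to 0.804), the log2 ratio -0.42, and the intervals did not overlap. Among all symbols Eng ranked 2816 with HBS and 3674 with PC-NVs.

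The difference of Eng lay on 1 of its 3 transcript rows. The main row had 24.6 FPKM with HBS and 16.5 FPKM with PC-NVs, a ratio of 0.670, and its share of Eng went from 84.7% to 77.0%. The second largest row had 4.02 FPKM and 4.44 FPKM, a ratio of 1.10. The smallest had 0.416 FPKM and 0.474 FPKM. The rows carry no transcript identifier, so which isoform each stands for is not given in the sources used here. How Cufflinks shares reads between transcripts of a gene bears on these shares more than on the sum.

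Vwf (plus strand of chromosome 6, 125546774 to 125686679), the secreted platelet-binding protein stored in Weibel-Palade bodies, was near the lower end. It stood at 0.158 FPKM (0.0972 to 0.252) with HBS and 0.128 FPKM (0.0674 to 0.216) with PC-NVs, from about 18.6 and 13.2 fragments. The ratio was 0.814 (0.356 to 1.67), which held 1. The level of Eng in HG+HBS was 184 times that of Vwf, both per length of transcript.

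Both transcription factors were at the limit of detection. Erg (minus strand of chromosome 16, 95359169 to 95586593), the ETS factor that keeps endothelial junction genes on, stood at 0.133 FPKM and 0.136 FPKM, from about 3.88 and 3.46 fragments, a ratio of 1.02 (0.126 to 5.08). In HG+HBS 1 of its 6 rows took 99.9% of the level, and in HG+PC-NVs that row was listed at 0 and other rows took 43.5% and 56.3%. Sox17 (minus strand of chromosome 1, 4490931 to 4497354), a SoxF factor of arterial endothelium, had 3.53e-05 FPKM with HBS and 0.0587 FPKM with PC-NVs. That is about 0.00120 and 1.74 fragments, both under the limit of 3 fragments, which for its length lies at 0.0882 FPKM and 0.101 FPKM. No ratio is given for Sox17.

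**Figure D2:**
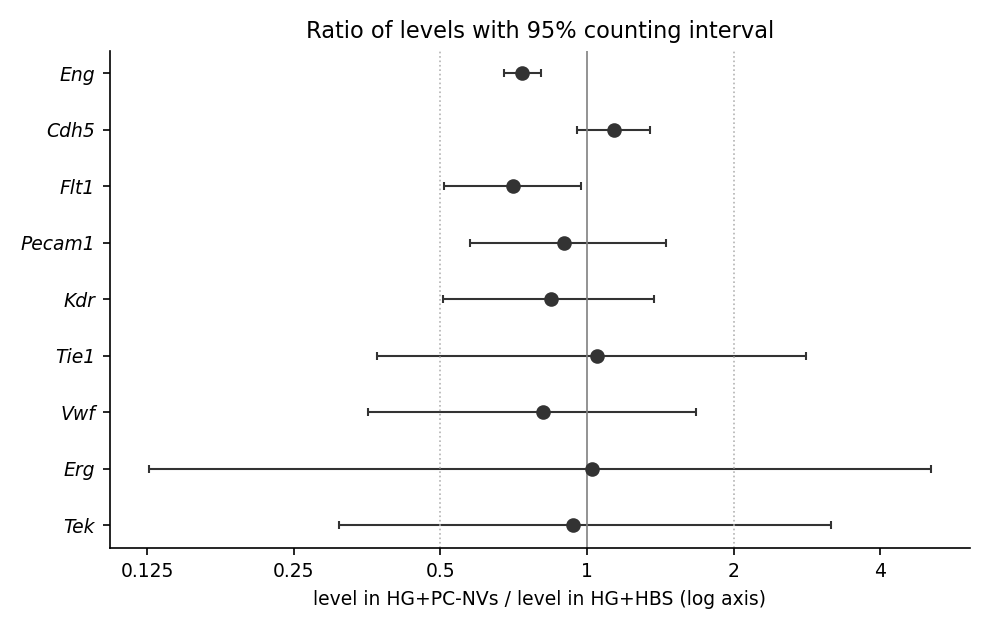
Ratio of levels, HG+PC-NVs over HG+HBS (horizontal axis, log axis), for the 9 endothelial identity genes above the limit of 3 fragments, with bars for the 95% exact binomial interval of the counts; dotted lines mark ratios of 0.5 and 2. The bars of Eng at 0.737 and Flt1 at 0.705 end left of 1, and those of the other 7 genes span it.

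In sum over the list, 7 of 9 ratio intervals held 1 and those of Eng and Flt1 did not, both lower in HG+PC-NVs. These intervals narrow as fragments increase and were not computed for all symbols. The count therefore has no background and does not set Eng and Flt1 apart from other genes. The levels were lower in 6 of 10 genes and higher in 4, and the 4 include Sox17, under the limit of 3 fragments in both libraries. Tek and Erg changed sign with the scaling, Tek to 0.01 after quantile normalization and Erg to -0.00 after upper-quartile scaling, and neither can be given a direction. Of the 3 genes with a mean of 1 FPKM or more (Cdh5, Flt1 and Eng), 1 was higher and 2 were lower. All 11828 symbols at that mean were split into 5730 higher and 6098 lower. Of the 3 genes, 0 passed 2-fold on the log2(FPKM + 1) scale in either direction. Among all 11828 symbols at that mean, 2.47% were past 2-fold higher and 0.829% past 2-fold lower, so 0 of 3 is not apart from the background. The median log2 ratio of the 10 genes was -0.02, beside -0.00 for all symbols above 0. For the 3 genes it was -0.25, beside -0.01 for all symbols at that mean.

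The order of levels differed little between the libraries. Eng came first and Cdh5 second in both, with no overlap of their intervals. Flt1 and Pecam1 followed and overlapped in both, with Flt1 ahead with HBS and Pecam1 ahead with PC-NVs. Kdr came next in both, apart from the pair above it. From Tie1 down to Sox17 each gene's interval overlapped that of the next, so the order of Tie1, Vwf, Tek, Erg and Sox17 could not be told at this depth. In HG+PC-NVs the interval of Tie1 also overlapped that of Kdr.

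The partners of the 10 genes were measured on 7 lists of 117 further endothelial genes, of which 79 had a mean of 1 FPKM or more. Of these 79, 6 passed 2-fold higher in HG+PC-NVs and 1 passed 2-fold lower, beside backgrounds of 2.47% and 0.829%. Another 36 were under 1 FPKM in both libraries, among them 2 listed at 0 in both, Bmp10 and Etv2. The median log2 ratio of the 79 was 0.11, beside -0.01 for all symbols at that mean. Over all listed genes above 0 in at least 1 library it was -0.04, beside -0.00 for all symbols.

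Each VEGF ligand on the list was above Flt1 and Kdr in both libraries. Vegfa, the ligand that drives vessel growth through Kdr, stood at 42.1 FPKM with HBS and 93.5 FPKM with PC-NVs, a ratio of 2.22. Vegfb, which binds Flt1 and not Kdr, stood at 47.3 FPKM and 37.1 FPKM. Pgf, placental growth factor, another ligand of Flt1, stood at 10.2 FPKM and 6.82 FPKM. Thus Vegfa was higher in HG+PC-NVs and the other ligands of Flt1 were lower. The lymphatic growth factors Vegfc and Vegfd (listed under its older symbol Figf) had 6.27 and 39.1 FPKM with HBS and 8.48 and 20.9 FPKM with PC-NVs. Their receptor Flt4 (VEGFR3), named after its values were seen, stood at 2.79 FPKM and 4.50 FPKM, above Flt1 and Kdr in both. The VEGF co-receptors Nrp1 and Nrp2, which are not limited to endothelium, went opposite ways. Nrp1 stood at 35.4 FPKM and 21.1 FPKM, and Nrp2 at 27.5 FPKM and 52.8 FPKM. Of the 8 genes on this list 1, Vegfa, passed 2-fold higher and 0 lower, beside 2.47% and 0.829% of all symbols.

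Angpt1 and Angpt2 were low, yet above Tek and Tie1. Angpt1, the agonist of TIE2 that pericytes supply, stood at 1.62 FPKM with HBS and 1.91 FPKM with PC-NVs. Angpt2, the context-dependent antagonist that endothelium stores, stood at 1.74 FPKM and 1.25 FPKM. Angpt4 stood at 0.920 FPKM and 0.118 FPKM, from about 28.6 and 3.20 fragments, the second just over the limit. Of the 6 genes on the list of angiopoietin and Tie partners, 3 had a mean of 1 FPKM or more and 0 passed 2-fold either way. That is not apart from the 2.47% higher and 0.829% lower of all symbols.

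Around Eng, most pathway genes were well measured. Of 17 receptors, ligands, SMADs and targets, 14 had a mean of 1 FPKM or more. Of these 14, 0 passed 2-fold, which is not apart from the 2.47% higher and 0.829% lower of all symbols. The targets Id1 and Id3, inhibitors of bHLH factors that BMP signals switch on, stood at 118 FPKM and 176 FPKM with HBS and 149 FPKM and 263 FPKM with PC-NVs. Both were higher in HG+PC-NVs while Eng was lower. The other co-receptor of the family, Tgfbr3 (betaglycan), stood at 102 FPKM and 130 FPKM, and the receptor Tgfbr2 at 55.0 FPKM and 45.9 FPKM. The circulating ligand of endoglin, Gdf2 (BMP9), had 0.0246 FPKM with HBS and was listed at 0 with PC-NVs, and Bmp10 was listed at 0 in both. The median log2 ratio of the 14 was 0.15.

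The catenins and other partners of VE-cadherin were among the best expressed genes of these lists. Ctnnb1 (β-catenin) stood at 283 FPKM with HBS and 315 FPKM with PC-NVs, Ctnna1 (α-catenin) at 70.5 FPKM and 69.0 FPKM, and Ctnnd1 (p120) at 56.2 FPKM and 47.7 FPKM. These proteins serve every classical cadherin and do not mark endothelium. Of 14 junction partners 12 had a mean of 1 FPKM or more and 0 passed 2-fold. This 0 is not apart from the 2.47% higher and 0.829% lower of all symbols. Cldn5, the claudin of endothelial tight junctions, chosen here after its values were seen, stood at 0.391 FPKM and 0.0648 FPKM, from about 7.38 and 1.07 fragments, the second under the limit of 3.

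Among 23 further transcription factors of endothelium, 16 had a mean of 1 FPKM or more. Past 2-fold were 0 lower, beside 0.829% of all symbols, and 2 higher, beside 2.47%. Those 2 were Sox7, a SoxF factor like Sox17, with 2.56 FPKM with HBS and 7.63 FPKM with PC-NVs, and Ets2, a broadly expressed ETS factor, with 8.46 FPKM and 24.6 FPKM. Nr2f2, the venous and mesenchymal nuclear receptor COUP-TFII, was highest at 50.2 FPKM and 51.6 FPKM. Etv2, the ETS factor that starts the endothelial lineage in the embryo, was listed at 0 in both. Sox18 and Fli1, the closest relatives of Sox17 and Erg on the list and chosen here after their values were seen, stood at 0.336 and 0.412 FPKM with HBS and 0.336 and 0.507 FPKM with PC-NVs.

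Of the 13 haemostasis and vessel tone genes, 7 were at 1 FPKM or more in both libraries. Another 5, F8, Mmrn1, Mmrn2, Edn1 and Nos3, were under 1 FPKM in both, as Vwf was. Procr, the endothelial protein C receptor, stood at 35.9 FPKM with HBS and 125 FPKM with PC-NVs, a ratio of 3.47. Plat, the tissue plasminogen activator, stood at 32.8 FPKM and 12.0 FPKM, a ratio of 0.367. Thus 1 of the 7 genes with a mean of 1 FPKM or more was past 2-fold higher and 1 past 2-fold lower. The shares of all symbols were 2.47% and 0.829%. The anticoagulants Thbd (30.2 FPKM and 54.1 FPKM) and Tfpi (31.8 FPKM and 31.5 FPKM) did not pass. Nos3, the endothelial nitric oxide synthase, chosen after its values were seen, stood at 0.191 FPKM and 0.0199 FPKM, from about 10.5 and 0.957 fragments. Its level in HG+HBS was close to that of Tie1 and Vwf, and in HG+PC-NVs it was under the limit of 3 fragments.

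Of 36 other surface and secreted genes used as endothelial markers, 19 had a mean of 1 FPKM or more. Of the 19, 2 passed 2-fold higher and 0 lower, beside 2.47% and 0.829% of all symbols. That 0 rests on the pseudocount of 1, since by the plain ratio Stab1, a scavenger receptor of sinusoidal endothelium and macrophages, stood at 4.17 FPKM with HBS against 1.91 FPKM with PC-NVs, a ratio of 0.459. Plvap, the diaphragm protein of fenestrated endothelium, named after its values were seen, stood at 4.90 FPKM and 2.36 FPKM, a ratio of 0.482. Calcrl, the receptor subunit for adrenomedullin, stood at 1.95 FPKM with HBS and 5.56 FPKM with PC-NVs. Pdpn (podoplanin), found on lymphatic endothelium and on fibroblasts, stood at 275 FPKM and 683 FPKM. Tm4sf1 and Cd34, which endothelium shares with stromal cells, were high, at 413 and 144 FPKM with HBS and 548 and 198 FPKM with PC-NVs.

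**Figure D3:**
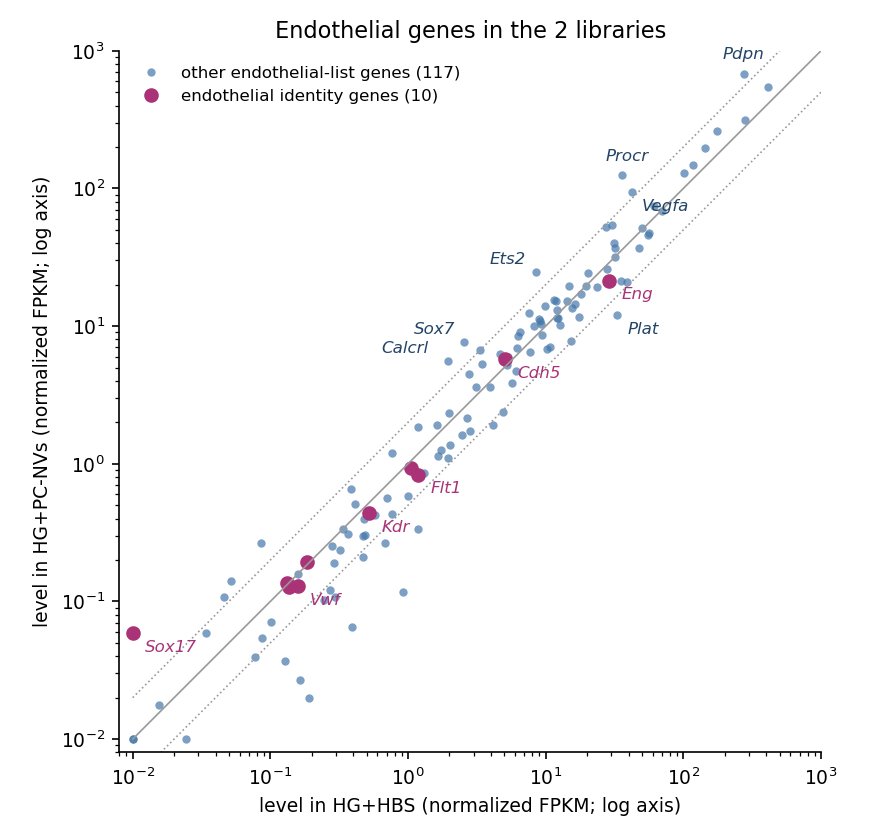
Level in HG+PC-NVs (vertical axis) against HG+HBS (horizontal axis), both in normalized FPKM on log axes, for the 10 endothelial identity genes (purple) and 117 other endothelial-list genes (blue), with lines at equal levels (solid) and at ratios of 2 and 0.5 (dotted); values under 0.01 FPKM are drawn at 0.01. Of the 10 genes only Sox17, which was under 3 fragments in both libraries, is off the dotted band, while Procr at 35.9 and 125 FPKM is above it and Plat at 32.8 and 12.0 FPKM below it.

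The levels of markers of other cell types were set beside these. All 14 fibroblast markers were at 1 FPKM or more in both libraries, beside 49.3% of all symbols. They summed to 3954 FPKM with HBS and 3998 FPKM with PC-NVs, 106 and 133 times the sum of the endothelial identity genes. The larger multiple goes with the lower sum of those 10 genes, 37.4 and 29.95 FPKM. The 117 further endothelial genes summed to 2675 and 3604 FPKM, with Tm4sf1, Ctnnb1 and Pdpn highest. Of the 14 fibroblast markers, 4 were higher and 10 lower in HG+PC-NVs, with a median log2 ratio of -0.23. All 11828 symbols with a mean of 1 FPKM or more were split into 5730 higher and 6098 lower. In each library 13 of the 14 were above Eng. Fn1 (fibronectin) stood at 1344 FPKM and 964 FPKM, Dcn (decorin) at 623 FPKM and 1283 FPKM, Thy1 at 549 FPKM and 412 FPKM, and Col1a2 at 312 FPKM and 198 FPKM. Cultured endothelium also makes fibronectin, whereas decorin and type I collagen are products of fibroblasts and mural cells.

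All 12 myeloid markers were at 1 FPKM or more in both libraries as well, summing to 390 FPKM with HBS and 634 FPKM with PC-NVs. Of these, 7 were higher in HG+PC-NVs and 5 lower, with a median log2 ratio of 0.07. All 11828 symbols with a mean of 1 FPKM or more were split into 5730 higher and 6098 lower. Of the 12, 4 passed 2-fold higher and 1 lower, beside 2.47% and 0.829% of those symbols. The 4 were Cd14, Adgre1, Fcer1g (18.8 FPKM and 41.1 FPKM) and Aif1 (2.93 FPKM and 12.9 FPKM). Lyz2 (lysozyme) stood at 212 FPKM and 193 FPKM, the lipopolysaccharide co-receptor Cd14 at 36.6 FPKM and 252 FPKM, and Adgre1 (F4/80, a macrophage marker) at 7.44 FPKM and 42.5 FPKM. The gene past 2-fold lower was Mrc1, the mannose receptor of macrophages, named here after its values were seen, at 3.76 FPKM and 1.27 FPKM, a ratio of 0.338. Cd68, a lysosomal protein of macrophages, stood at 36.2 FPKM and 26.3 FPKM. Adgre1 was above Cdh5 in both libraries, whereas Mrc1, the leukocyte marker Ptprc (1.44 FPKM and 1.67 FPKM) and Itgam (1.56 FPKM and 2.02 FPKM), the last 2 also named after their values were seen, were below it in both.

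The pericyte markers summed to 106 FPKM and 113 FPKM, with 8 of 12 at 1 FPKM or more in both and 3 past 2-fold higher, Rgs5 (1.69 FPKM and 7.23 FPKM), Kcnj8 (7.98 FPKM and 20.4 FPKM) and Ndufa4l2 (3.83 FPKM and 17.3 FPKM). Over all symbols 49.3% were at 1 FPKM or more in both. At a mean of 1 FPKM or more, 2.47% of all symbols were past 2-fold higher and 0.829% past 2-fold lower. The 10 pericyte markers at that mean were split into 5 higher and 5 lower. Among the lower were Cspg4 (NG2) at 20.4 FPKM and 12.2 FPKM, a ratio of 0.595, and Anpep at 26.7 FPKM and 13.7 FPKM, a ratio of 0.514, neither past 2-fold. Pdgfrb, the receptor by which pericytes are recruited, stood at 38.4 FPKM and 33.7 FPKM. Smooth muscle markers summed to 73.8 FPKM and 38.1 FPKM, with Acta2 at 27.6 FPKM and 8.02 FPKM and Tagln at 17.3 FPKM and 7.34 FPKM, both past 2-fold lower. Epithelial and mesothelial markers summed to 10.3 FPKM and 2.66 FPKM, of which Krt18 gave 9.61 FPKM and 2.05 FPKM, with Cdh1, Krt5, Krt14, Wt1 and Upk3b listed at 0 in both. Schwann cell markers summed to 2.18 FPKM and 2.10 FPKM.

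The cells are labelled as endothelial. Of the 10 genes, Eng and Cdh5 were above 5 FPKM in both libraries, and the other 8, Pecam1, Kdr, Flt1, Tek, Tie1, Vwf, Erg and Sox17, were at 1.19 FPKM or below in both. The 14 fibroblast markers and the 12 myeloid markers each summed to more than the 10 genes together in both libraries. For those 8 genes the levels go against the label, and for Cdh5 and Eng they do not, although Eng is also made by other cell types. Of the 117 further endothelial genes, 78 (66.7%) were at 1 FPKM or more in both libraries, beside 49.3% of all symbols. Among them were Esam (17.4 and 11.7 FPKM), Esm1 (14.3 and 15.3 FPKM) and Egfl7 (9.48 and 8.57 FPKM), picked after their values were seen. Another 36 were under 1 FPKM in both. Among these were Emcn (0.707 and 0.568 FPKM), Icam2 (0.577 and 0.422 FPKM) and Robo4 (0.297 and 0.109 FPKM), also picked after their values were seen. Some of the 117, such as the catenins, do not mark endothelium. The summed myeloid and smooth muscle levels differed between the libraries along with Eng and Flt1, and their part in those differences was not tested. Most of the difference of the myeloid sum lay in Cd14, at 36.6 FPKM with HBS and 252 FPKM with PC-NVs. Of the 12 myeloid markers, 7 were higher and 5 lower. The 12 housekeeping genes all stayed within 2-fold, but 10 were higher in HG+PC-NVs and 2 lower. Their median log2 ratio was 0.19, beside -0.01 for all symbols with a mean of 1 FPKM or more. The largest ratios were those of Pgk1 (1.80) and B2m (1.79).

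**Figure D4:**
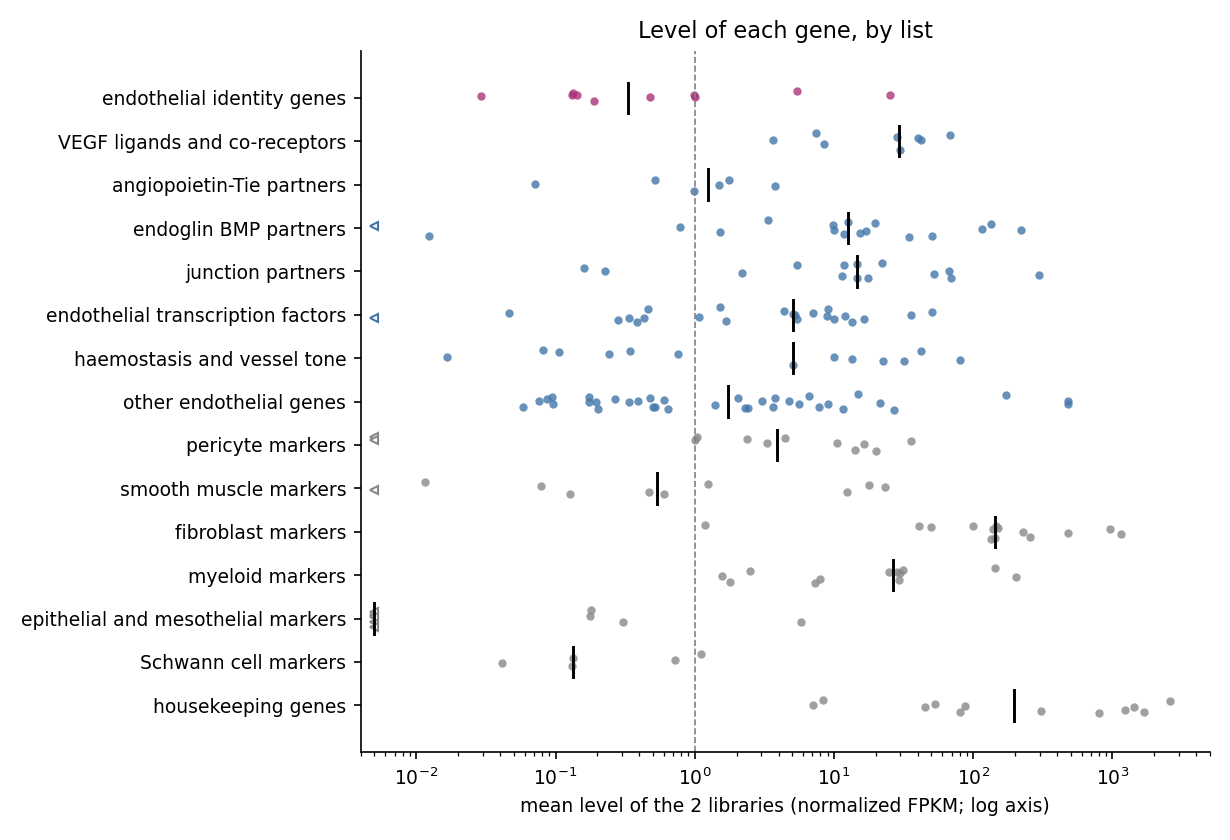
Mean level of the 2 libraries (horizontal axis, normalized FPKM on a log axis) for each gene, by list, with the endothelial identity genes in purple, the other endothelial lists in blue and the marker and housekeeping lists in grey; black bars are list medians, the dashed line marks 1 FPKM and open triangles are values under 0.005 FPKM. The median of the endothelial identity genes, 0.352 FPKM with HBS and 0.316 FPKM with PC-NVs, is left of the line, whereas all 14 fibroblast and all 12 myeloid markers are right of it.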

How the data were processed

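RNA sequencing of MCECs gave 1 library each for HG+HBS and HG+PC-NVs. The authors trimmed reads, aligned them with TopHat to mm10 (both named in the submitters' processing notes), counted with BEDTools, computed FPKM with Cufflinks, normalized in R with edgeR by what the methods call quantile normalization, and deposited log2(FPKM + 1) values per transcript row. Tool versions and the annotation are not given in the sources used here.

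Levels are 2 to the power of the deposited log2 value, less 1, summed over the rows of a symbol, with no further normalization. Ratios used a pseudocount of 1, and folds were counted where the mean was at least 1 FPKM. FPKM was multiplied by transcript length in kb, and the value of 1 fragment was read from where products of values above 0.001 FPKM piled up lowest, over 2189 symbols with a single transcript of at least 1500 nt. It was 0.0751 and 0.0860, with further peaks at 1.98 and 2.02 times it. This assumes a scale that the normalization left linear, so fragment counts and their intervals are approximate. For genes with several transcripts, the median length was used. Counts in the text are rounded and need not be whole. The calculations were tested on simulated data. Positions came from GENCODE M21 and promoters from RefSeq.

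The 10 genes and all lists were chosen with earlier results of these data known. Besides the 10 genes, a rule picked the 4 highest genes of each list. It added the 4 of each list with the largest absolute log2 ratio at a mean of 1 FPKM or more. Genes listed at 0 in both and the ligands of the receptors were also picked. The text names some of these and not all, chosen with their values known. Others are stated to be chosen after their values were seen. The alternatives were other scalings, pseudocounts, thresholds and the highest row in place of the sum. Cultures in normal glucose were not analysed here. The work was done in Python 3.11.15 with scipy 1.17.1, pandas 2.3.3 and numpy 2.4.6, and figures were drawn with matplotlib 3.10.9.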

Additional observations from a re-analysis of the deposited data

How the results depend on the processing

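With 1 library per condition, no library could be left out and no test was made. No paired analysis was possible because neither condition has a repeat. Of 45 ratios of the endothelial identity genes recomputed under other settings, 43 stayed within the counting interval of the ratio as given. The exceptions were Vwf with a pseudocount of 0.1 (log2 ratio -0.17) and Eng by its highest row alone (-0.55). Of 47 recomputed counts, medians and sums, 42 stayed close and 5 moved. The median log2 ratio was -0.25 when taken over genes with a mean of 1 FPKM or more, in place of -0.02. At a level of 0.3 FPKM, 5 genes in place of 2 passed in both libraries. By the highest row alone the summed level was 32.9 FPKM with HBS and 25.0 FPKM with PC-NVs, in place of 37.4 and 29.95. With a pseudocount of 0.1, 3 genes of the endothelial lists passed 2-fold lower in place of 1, Stab1 and Plvap joining Plat. The scalings moved the median of all genes at 1 FPKM or more in both libraries to -0.04 at most, from -0.01 as deposited. Depth limits Tie1, Vwf, Tek, Erg and Sox17 most, each under 20 fragments in both libraries.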

Other observations

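Some endothelial genes outside the 10 lay below 1 FPKM but above 3 fragments in both libraries, and they differed in both directions. How all symbols at such levels were split was not computed. The genes given here were chosen after their values were seen, from both directions, and do not show how the rest were split. No count or test is drawn from them. Robo4, the roundabout receptor of endothelium, had 0.297 FPKM with HBS and 0.109 FPKM with PC-NVs, from about 16.2 and 5.16 fragments. Dll4, the Notch ligand of tip and arterial cells, had 0.272 FPKM and 0.122 FPKM, from about 13.6 and 5.30 fragments. The Notch receptor Notch4 was higher with PC-NVs, at 0.383 FPKM and 0.657 FPKM, from about 33.6 and 50.4 fragments. So were Prox1, the factor that sets lymphatic identity, at 0.0522 FPKM and 0.141 FPKM from about 5.50 and 13.0 fragments, and the lymphatic hyaluronan receptor Lyve1, at 0.0851 FPKM and 0.264 FPKM from about 3.28 and 8.89 fragments.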
